A study of Rattus norvegicus with 16 samples.

Results

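Cholesterol synthesis and its control by the sterol regulatory element-binding proteins (SREBPs) were followed in the rat sciatic nerve after resection. The 28 genes were chosen by name, as enzymes of the mevalonate and sterol pathway, SREBP factors with their partners, or targets. Of these, 26 had a probe set annotated to that symbol alone and were measured among 18166 genes, with 1 probe set each, and Hmgcs1 and Mvk were not analysed here. The measured genes were 18 enzymes, 7 genes of SREBP control and the sterol transfer gene Stard4.

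All animals were male Sprague Dawley rats of 6 weeks with a resected right sciatic nerve, whose distal stump was displaced so that axons could not grow back into it. Anaesthesia was with isoflurane, and for pain the animals were given buprenorphine and either ketoprofen or meloxicam. The paper does not state which of the latter drugs these rats were given. The 4 groups were injured distal nerve at 3 days post injury (3 DPI), injured distal nerve at 7 DPI, and the contralateral uninjured nerve taken from injured animals on each day. The contralateral nerve came from an operated animal, so no group was naive. Each group held 4 arrays of total RNA that the labels call biological replicates, without tying a nerve to an animal, and the p-values measure the spread between these nerves.

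Cholesterol is built from acetyl-CoA through mevalonate, isoprenoid diphosphates, squalene and lanosterol, and the later steps trim lanosterol to cholesterol. When sterols are scarce, SCAP carries SREBP from the endoplasmic reticulum to the Golgi, where the site-1 and site-2 proteases release the factor that switches on the genes of the pathway. When sterols are plentiful, INSIG proteins hold SCAP back. In nerve the pathway is known for supplying cholesterol to myelin, the Schwann cell membrane wrapped around axons.

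Values are log2 intensities from the robust multichip average (RMA), and a change is injured minus contralateral on that scale, with its standard error and n = 4 arrays per group. A gene was called when its limma p, adjusted by Benjamini-Hochberg over the 18166 genes, was under 0.05 and the change was at least 2-fold. The labelled tissue was checked on myelin genes: the mean level of the 10 measured markers of myelinating Schwann cells lay between 11.57 and 12.10 on the contralateral arrays. The nerve is bulk tissue, in which fewer cells of a type and less RNA per cell cannot be told apart.

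The bases before the start of 5 members are shown first: Idi1, which had the lowest change, Msmo1, Nsdhl and Hsd17b7, which act in 1 cycle of the pathway, and Insig1, the SREBP control gene that was called. SREBPs are known to act beside the factors NF-Y, which binds CCAAT, and Sp1, which binds GGGCGG. RefSeq promoters of the rat build GRCr8, from 250 bases before to 50 after the start, were listed for 22 of the 26 measured members. On either strand, CCAAT was found in 16 of the 22, against 37.5% of all 33469 promoters and 37.5% of the promoters of measured genes. GGGCGG was found in 17 of the 22, against 33.1% of all promoters and 47.3% of those of measured genes. The classical sterol regulatory element, searched as TCACNCCAC, was found in 0 of the 22 and in 1.12% of all promoters. CCAAT was present in 10 of the 13 members that were called lower on either day and in 6 of the 9 that were not. None of the 3 motifs contains another, and a match is a description, not a binding site. The lines below give the 250 bases before the start, 5′ to 3′ on the strand of the gene, with CCAAT or its complement ATTGG in capitals. They come from chr17:66547525-66547774 (minus strand), chr16:29746863-29747112 (plus), chrX:155817110-155817359 (plus), chr13:84722755-84723004 (minus) and chr4:8057770-8058019 (minus).
Idi1: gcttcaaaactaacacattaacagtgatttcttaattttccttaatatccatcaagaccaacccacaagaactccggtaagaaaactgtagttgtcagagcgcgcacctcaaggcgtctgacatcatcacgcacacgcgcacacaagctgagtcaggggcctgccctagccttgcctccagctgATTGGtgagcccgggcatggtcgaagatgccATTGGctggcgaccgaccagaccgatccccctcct
Msmo1: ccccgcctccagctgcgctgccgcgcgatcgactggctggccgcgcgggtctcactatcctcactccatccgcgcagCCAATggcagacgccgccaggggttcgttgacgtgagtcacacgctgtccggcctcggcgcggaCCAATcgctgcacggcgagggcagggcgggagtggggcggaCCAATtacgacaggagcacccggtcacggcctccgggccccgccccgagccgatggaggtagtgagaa
Nsdhl: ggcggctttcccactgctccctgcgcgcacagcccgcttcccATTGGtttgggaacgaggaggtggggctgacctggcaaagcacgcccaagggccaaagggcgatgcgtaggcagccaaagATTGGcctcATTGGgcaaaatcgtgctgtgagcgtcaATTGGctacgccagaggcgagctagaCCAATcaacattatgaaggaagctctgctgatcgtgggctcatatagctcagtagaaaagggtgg
Hsd17b7: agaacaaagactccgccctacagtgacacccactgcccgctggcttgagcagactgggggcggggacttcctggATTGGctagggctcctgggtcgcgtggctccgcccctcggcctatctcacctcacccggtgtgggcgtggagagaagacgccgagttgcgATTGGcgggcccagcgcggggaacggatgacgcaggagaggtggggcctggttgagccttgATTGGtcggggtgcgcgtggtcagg
Insig1: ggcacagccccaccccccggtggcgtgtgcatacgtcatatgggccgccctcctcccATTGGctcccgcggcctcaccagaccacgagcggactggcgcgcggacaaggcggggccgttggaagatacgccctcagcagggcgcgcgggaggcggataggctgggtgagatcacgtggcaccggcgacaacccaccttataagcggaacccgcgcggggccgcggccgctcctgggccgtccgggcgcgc
Nsdhl held 5 copies, Msmo1 and Hsd17b7 3 each, Idi1 2 and Insig1 1.

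The first question was how each step of the pathway differed between injured and contralateral nerve on each day. Most enzymes were lower by 3 DPI and still lower at 7 DPI. At 3 DPI 16 of the 26 members were called lower, against 2.55% of all genes, and 0 were called higher, against 3.25%. At 7 DPI 17 were called lower, the same 16 and Stard4, against 2.17% of all genes, and 0 higher, against 2.48%. Among the enzymes, 15 of 18 were called lower on each day, the exceptions being Mvd, Ggps1 and Lbr.

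By adjusted p alone, 22 members were lower at 3 DPI (14.7% of all genes) and 2, Lbr and Mbtps2, were higher (18.8%). At 7 DPI 19 were lower (13.0%) and 1, Mbtps2, was higher (19.1%). At an unadjusted p under 0.05, 25 members differed at 3 DPI and 20 at 7 DPI by limma. The share of all genes at an unadjusted p was not counted, so such counts, here and below, have no background. The groups did not overlap for 22 members that were lower (14.6% of all genes) and 2 that were higher (19.3%) at 3 DPI, and for 19 lower (12.8%) and 1 higher (18.9%) at 7 DPI. The median change of the 26 members was -1.60 at 3 DPI and -1.69 at 7 DPI, and that of the 18 enzymes was -1.89 and -2.00. The median over all 18166 genes was -0.005 and -0.004.

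**Figure D1:**
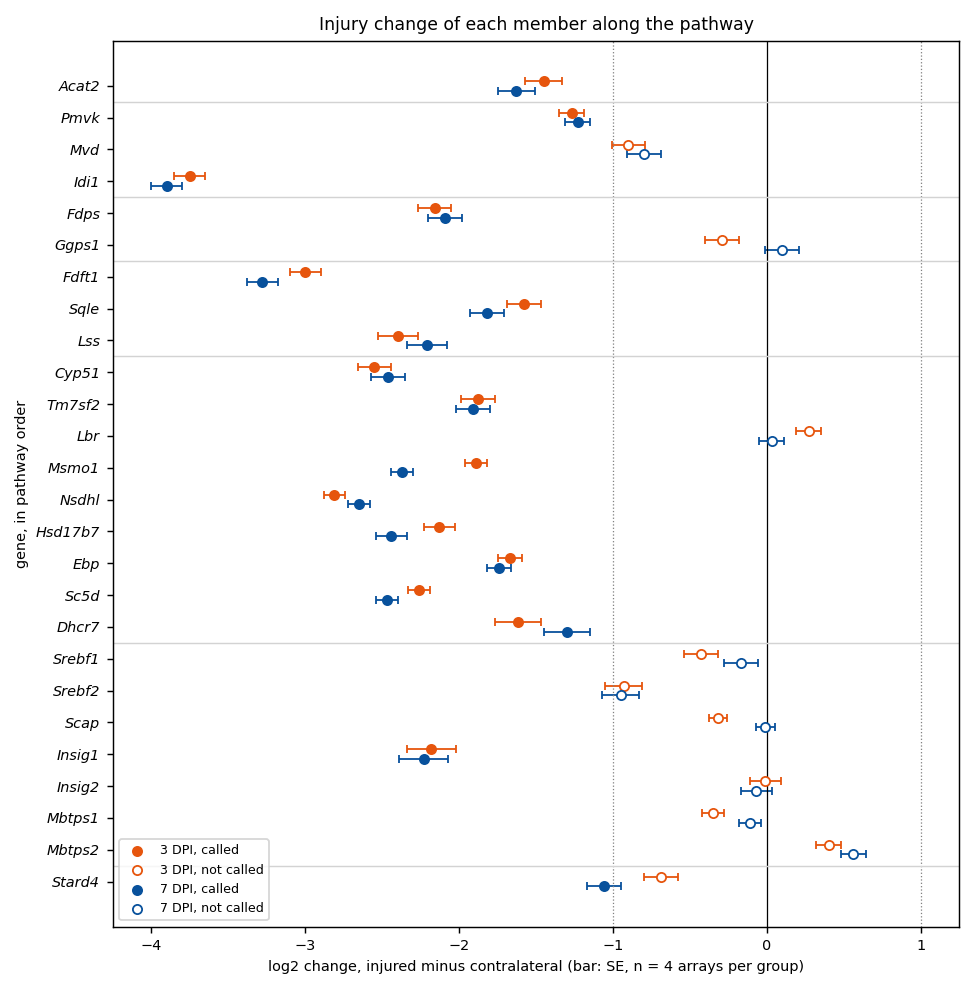
Log2 change of each measured member, injured minus contralateral nerve, at 3 DPI (orange) and 7 DPI (blue), in pathway order from top to bottom. Bars are standard errors with n = 4 arrays per group, filled points were called, open points were not, and dotted lines mark 2-fold. Idi1 lies farthest left at -3.75 and -3.90, while Ggps1, Lbr and Insig2 lie near 0.

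The pathway opens with Acat2, cytosolic acetoacetyl-CoA thiolase, which joins acetyl groups. Its log2 values were 9.10, 9.22, 9.05 and 9.25 in contralateral nerve and 7.39, 8.09, 7.82 and 7.53 in injured nerve at 3 DPI, and 9.20, 8.99, 9.09 and 9.22 in contralateral nerve and 7.39, 7.68, 7.46 and 7.44 in injured nerve at 7 DPI. The injured arrays lay below all contralateral arrays on both days. The change was -1.45 ± 0.12 at 3 DPI (2.72-fold lower, adjusted p = 7.8e-08) and -1.63 ± 0.12 at 7 DPI (3.10-fold lower, adjusted p = 2.6e-08).

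The next enzymes carry mevalonate to the isoprenoid building block, isopentenyl diphosphate, and its isomer. Pmvk, phosphomevalonate kinase, read 8.74, 9.00, 9.10 and 8.87 in contralateral nerve and 7.52, 7.69, 7.73 and 7.71 in injured nerve at 3 DPI, and 8.82, 8.93, 8.88 and 8.94 in contralateral nerve and 7.56, 7.80, 7.65 and 7.64 in injured nerve at 7 DPI. The change was -1.27 ± 0.08 at 3 DPI (2.41-fold lower, adjusted p = 3e-09) and -1.23 ± 0.08 at 7 DPI (2.35-fold lower, adjusted p = 6.3e-09), and the groups did not overlap. Mvd, which removes the carboxyl group from diphosphomevalonate, ranged from 7.80 to 8.29 in contralateral and from 7.01 to 7.20 in injured nerve at 3 DPI, and from 7.67 to 8.04 and 6.90 to 7.22 at 7 DPI. Its change passed the adjusted p without reaching 2-fold, -0.90 ± 0.11 at 3 DPI (1.86-fold lower, adjusted p = 6.5e-06) and -0.80 ± 0.11 at 7 DPI (1.74-fold lower, adjusted p = 2.8e-05).

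Idi1, isopentenyl diphosphate isomerase, showed the lowest change among the 26 members on both days. Its log2 values were 11.16, 11.38, 11.66 and 11.44 in contralateral nerve and 7.54, 7.70, 7.59 and 7.81 in injured nerve at 3 DPI, and 11.28, 11.36, 11.42 and 11.37 in contralateral nerve and 7.67, 7.44, 7.44 and 7.28 in injured nerve at 7 DPI. Every injured array was more than 3 log2 units below every contralateral array. The change was -3.75 ± 0.10 at 3 DPI (13.5-fold lower, adjusted p = 2.1e-13) and -3.90 ± 0.10 at 7 DPI (14.9-fold lower, adjusted p = 9.1e-14). Its promoter, shown above, held CCAAT near the start.

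The isoprenoid branch point has 2 measured synthases. Fdps makes farnesyl diphosphate, the precursor of squalene, and read 10.36, 10.66, 10.75 and 10.59 in contralateral nerve and 8.27, 8.61, 8.34 and 8.49 in injured nerve at 3 DPI, and 10.46, 10.67, 10.44 and 10.52 in contralateral nerve and 8.19, 8.57, 8.59 and 8.37 in injured nerve at 7 DPI. The change was -2.16 ± 0.11 at 3 DPI (4.48-fold lower, adjusted p = 1.3e-10) and -2.09 ± 0.11 at 7 DPI (4.27-fold lower, adjusted p = 2.5e-10), with no overlap of groups. Ggps1, which makes geranylgeranyl diphosphate for protein prenylation, ranged from 6.98 to 7.34 in contralateral and 6.70 to 7.07 in injured nerve at 3 DPI, and from 6.93 to 7.25 and 6.96 to 7.37 at 7 DPI. These ranges overlapped on both days, and the change was -0.29 ± 0.11 at 3 DPI (1.22-fold lower, adjusted p = 0.058) and 0.10 ± 0.11 at 7 DPI (1.07-fold higher, adjusted p = 0.54). Within the same arrays, the change of Fdps was lower than that of Ggps1 by a log2 difference of -1.88 ± 0.11 at 3 DPI and -2.20 ± 0.16 at 7 DPI.

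All 3 enzymes from farnesyl diphosphate to lanosterol were called lower on both days. Fdft1, squalene synthase, which commits isoprenoids to sterols, read 11.36, 11.56, 11.78 and 11.55 in contralateral nerve and 8.45, 8.64, 8.60 and 8.54 in injured nerve at 3 DPI, and 11.53, 11.48, 11.38 and 11.53 in contralateral nerve and 8.37, 8.30, 7.94 and 8.20 in injured nerve at 7 DPI. The change was -3.00 ± 0.10 at 3 DPI (8.02-fold lower, adjusted p = 1.5e-12) and -3.28 ± 0.10 at 7 DPI (9.69-fold lower, adjusted p = 2.6e-13), and the injured arrays lay far below the rest. Sqle, squalene epoxidase, which uses oxygen to prepare squalene for ring closure, read 9.58, 9.88, 10.28 and 10.04 in contralateral nerve and 8.43, 8.40, 8.30 and 8.33 in injured nerve at 3 DPI, and 9.91, 9.95, 9.68 and 9.83 in contralateral nerve and 8.05, 7.94, 8.15 and 7.94 in injured nerve at 7 DPI. Its change was -1.58 ± 0.11 at 3 DPI (2.99-fold lower, adjusted p = 9.6e-09) and -1.82 ± 0.11 at 7 DPI (3.54-fold lower, adjusted p = 2.6e-09), without overlap. Lss, lanosterol synthase, closes the rings of the sterol. It read 9.79, 9.97, 9.62 and 9.75 in contralateral nerve and 7.49, 7.42, 7.12 and 7.50 in injured nerve at 3 DPI, and 9.89, 9.56, 9.67 and 9.33 in contralateral nerve and 7.67, 7.42, 7.31 and 7.22 in injured nerve at 7 DPI. The change was -2.40 ± 0.13 at 3 DPI (5.29-fold lower, adjusted p = 2.5e-10) and -2.21 ± 0.13 at 7 DPI (4.63-fold lower, adjusted p = 9e-10), and no injured array reached the contralateral range.

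**Figure D2:**
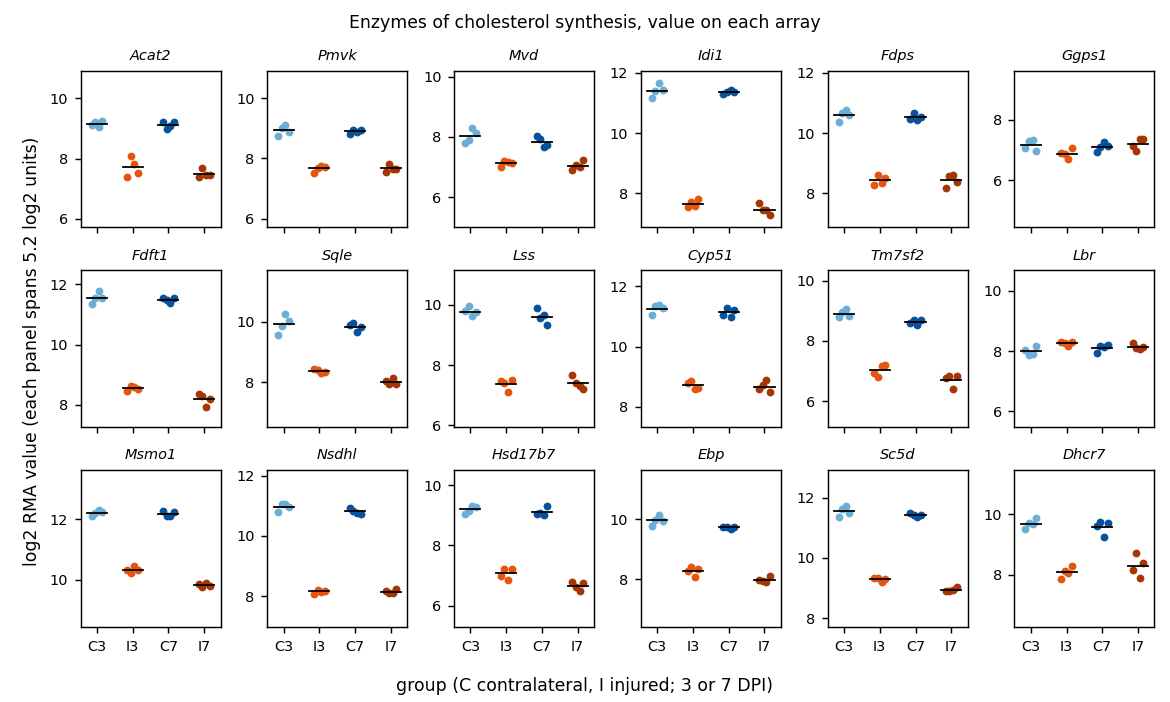
Log2 RMA value on each array for the 18 measured enzymes, in pathway order, with contralateral (C) and injured (I) nerve at 3 and 7 DPI. Each point is 1 array, the line is the group mean, and every panel spans the same range of log2 units. In 16 panels the injured arrays form a separate lower band on both days, and the bands overlap for Ggps1 on both days and for Lbr at 7 DPI.

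The 9 measured enzymes between lanosterol and cholesterol were followed in the order of the route, and 8 were called lower on each day. Cyp51, lanosterol 14-demethylase, acts first. Its log2 values were 11.04, 11.36, 11.37 and 11.27 in contralateral nerve and 8.78, 8.87, 8.58 and 8.61 in injured nerve at 3 DPI, and 11.04, 11.29, 10.98 and 11.21 in contralateral nerve and 8.59, 8.73, 8.89 and 8.48 in injured nerve at 7 DPI. The change was -2.55 ± 0.11 at 3 DPI (5.86-fold lower, adjusted p = 2.1e-11) and -2.46 ± 0.11 at 7 DPI (5.49-fold lower, adjusted p = 3.3e-11), with the injured arrays all below the contralateral arrays. The next reduction, at carbon 14, can be made by Tm7sf2 or Lbr. Tm7sf2 read 8.78, 8.95, 9.07 and 8.82 in contralateral nerve and 6.94, 6.81, 7.17 and 7.20 in injured nerve at 3 DPI, and 8.59, 8.68, 8.53 and 8.68 in contralateral nerve and 6.76, 6.85, 6.41 and 6.84 in injured nerve at 7 DPI. The change was -1.88 ± 0.11 at 3 DPI (3.67-fold lower, adjusted p = 7.3e-10) and -1.91 ± 0.11 at 7 DPI (3.75-fold lower, adjusted p = 8.3e-10). Lbr, the lamin B receptor, which has a reductase domain and also anchors chromatin at the nuclear envelope, ranged from 7.86 to 8.17 in contralateral and 8.18 to 8.30 in injured nerve at 3 DPI, and from 7.95 to 8.21 and 8.06 to 8.27 at 7 DPI. The change of Lbr was 0.27 ± 0.08 at 3 DPI (1.20-fold higher, adjusted p = 0.014) and 0.03 ± 0.08 at 7 DPI (1.02-fold higher, adjusted p = 0.81). The change of Tm7sf2 was lower than that of Lbr by -2.14 ± 0.16 log2 units at 3 DPI and -1.94 ± 0.10 at 7 DPI.

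The methyl groups at carbon 4 are removed by Msmo1, Nsdhl and Hsd17b7 in turn. Msmo1, methylsterol monooxygenase, read 12.11, 12.21, 12.31 and 12.26 in contralateral nerve and 10.32, 10.23, 10.44 and 10.32 in injured nerve at 3 DPI, and 12.28, 12.12, 12.12 and 12.25 in contralateral nerve and 9.85, 9.75, 9.89 and 9.79 in injured nerve at 7 DPI. The arrays of injured nerve at 7 DPI lay below those at 3 DPI, which lay below all contralateral arrays. The change was -1.89 ± 0.07 at 3 DPI (3.72-fold lower, adjusted p = 4e-12) and -2.37 ± 0.07 at 7 DPI (5.18-fold lower, adjusted p = 2.2e-13). Nsdhl, the decarboxylating sterol dehydrogenase, read 10.80, 11.07, 11.04 and 10.94 in contralateral nerve and 8.08, 8.20, 8.15 and 8.18 in injured nerve at 3 DPI, and 10.92, 10.81, 10.76 and 10.74 in contralateral nerve and 8.16, 8.11, 8.09 and 8.24 in injured nerve at 7 DPI. Its injured arrays stayed in a narrow band on both days, and the change was -2.81 ± 0.07 at 3 DPI (7.03-fold lower, adjusted p = 1.2e-13) and -2.65 ± 0.07 at 7 DPI (6.30-fold lower, adjusted p = 9.1e-14). Hsd17b7, the ketoreductase of this cycle, read 9.05, 9.15, 9.29 and 9.27 in contralateral nerve and 6.99, 7.23, 6.84 and 7.20 in injured nerve at 3 DPI, and 9.04, 9.08, 8.99 and 9.30 in contralateral nerve and 6.79, 6.63, 6.48 and 6.76 in injured nerve at 7 DPI. The change was -2.13 ± 0.10 at 3 DPI (4.37-fold lower, adjusted p = 9.4e-11) and -2.44 ± 0.10 at 7 DPI (5.43-fold lower, adjusted p = 2e-11), again without overlap. The promoters of these 3 genes, shown above, each held at least 3 CCAAT matches. Those of Acat2, Cyp51 and Dhcr7, which were also called lower, held 0. The number of matches in a promoter was not set against that of all genes.

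The last conversions shift, add and reduce double bonds of the sterol. Ebp, the sterol isomerase named for binding emopamil, read 9.78, 9.98, 10.13 and 9.93 in contralateral nerve and 8.29, 8.42, 8.08 and 8.36 in injured nerve at 3 DPI, and 9.75, 9.73, 9.67 and 9.74 in contralateral nerve and 7.97, 7.93, 7.91 and 8.10 in injured nerve at 7 DPI. The change was -1.67 ± 0.08 at 3 DPI (3.17-fold lower, adjusted p = 1.5e-10) and -1.74 ± 0.08 at 7 DPI (3.35-fold lower, adjusted p = 1.2e-10), with no overlap. Sc5d, sterol C5-desaturase, read 11.37, 11.63, 11.71 and 11.48 in contralateral nerve and 9.34, 9.32, 9.20 and 9.30 in injured nerve at 3 DPI, and 11.48, 11.41, 11.37 and 11.41 in contralateral nerve and 8.91, 8.91, 8.95 and 9.03 in injured nerve at 7 DPI. Its change was -2.26 ± 0.07 at 3 DPI (4.77-fold lower, adjusted p = 1.3e-12) and -2.47 ± 0.07 at 7 DPI (5.54-fold lower, adjusted p = 2.2e-13), and the injured arrays were tightly grouped. Dhcr7, 7-dehydrocholesterol reductase, which catalyses a final step to cholesterol, read 9.51, 9.73, 9.67 and 9.87 in contralateral nerve and 7.86, 8.11, 8.04 and 8.29 in injured nerve at 3 DPI, and 9.63, 9.75, 9.24 and 9.71 in contralateral nerve and 8.14, 8.72, 7.90 and 8.39 in injured nerve at 7 DPI. The change was -1.62 ± 0.15 at 3 DPI (3.08-fold lower, adjusted p = 3.2e-07) and -1.30 ± 0.15 at 7 DPI (2.46-fold lower, adjusted p = 5.4e-06). The injured arrays of Dhcr7 spread more at 7 DPI, from 7.90 to 8.72, and still did not reach the contralateral range.

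Of the 7 genes of SREBP control, only Insig1 was called, on both days. Srebf2, which encodes the SREBP that mainly drives cholesterol genes, read 9.13, 9.09, 9.56 and 9.22 in contralateral nerve and 8.20, 8.30, 8.35 and 8.42 in injured nerve at 3 DPI, and 9.37, 9.28, 8.98 and 9.29 in contralateral nerve and 8.60, 8.29, 8.10 and 8.13 in injured nerve at 7 DPI. All injured arrays lay below all contralateral arrays. The change was -0.93 ± 0.12 at 3 DPI (1.91-fold lower, adjusted p = 1.1e-05) and -0.95 ± 0.12 at 7 DPI (1.94-fold lower, adjusted p = 1.2e-05), short of 2-fold. At 7 DPI it passed 2-fold without contralateral replicate 3 (-1.04), without injured replicate 1 (-1.06) and after cyclic loess (-1.04). Srebf1, which encodes the SREBPs that mainly drive fatty acid genes, read 7.24, 7.24, 7.33 and 7.38 in contralateral nerve and 6.77, 6.83, 6.90 and 6.96 in injured nerve at 3 DPI, and 7.89, 7.54, 7.31 and 7.20 in contralateral nerve and 7.28, 7.27, 7.37 and 7.35 in injured nerve at 7 DPI. The injured arrays at 3 DPI lay below the contralateral ones, and the ranges overlapped at 7 DPI, where contralateral replicates 1 and 2 were the highest. The change was -0.43 ± 0.11 at 3 DPI (1.35-fold lower, adjusted p = 0.0052) and -0.17 ± 0.11 at 7 DPI (1.12-fold lower, adjusted p = 0.29). The mean level of 8 adipocyte markers was 8.38 and 8.29 on those 2 arrays, against 7.92 and 7.25 on the other contralateral arrays at 7 DPI, and without them the change of Srebf1 at 7 DPI was 0.07 (adjusted p = 0.63). The part of adipocytes in these values was not tested. Within arrays the change of Srebf2 was lower than that of Srebf1 by -0.50 ± 0.09 log2 units at 3 DPI and -0.79 ± 0.19 at 7 DPI.

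The INSIG genes had unlike values. Insig1, itself a known SREBP target, read 9.52, 9.65, 9.81 and 9.78 in contralateral nerve and 7.75, 7.27, 7.55 and 7.49 in injured nerve at 3 DPI, and 9.55, 9.88, 9.37 and 9.69 in contralateral nerve and 7.93, 7.27, 7.05 and 7.32 in injured nerve at 7 DPI. The change was -2.18 ± 0.16 at 3 DPI (4.53-fold lower, adjusted p = 1.2e-08) and -2.23 ± 0.16 at 7 DPI (4.70-fold lower, adjusted p = 1.3e-08), and the injured and contralateral arrays did not overlap. Insig2, which encodes the related retention protein, read 8.12, 8.04, 7.88 and 8.08 in contralateral nerve and 7.84, 7.87, 8.18 and 8.19 in injured nerve at 3 DPI, and 7.79, 7.96, 8.14 and 8.02 in contralateral nerve and 7.87, 7.81, 7.89 and 8.09 in injured nerve at 7 DPI. Its groups overlapped throughout, and the change was -0.01 ± 0.10 at 3 DPI (1.01-fold lower, adjusted p = 0.96) and -0.07 ± 0.10 at 7 DPI (1.05-fold lower, adjusted p = 0.67). The difference between the changes of Insig1 and Insig2 was -2.17 ± 0.18 log2 units at 3 DPI and -2.17 ± 0.25 at 7 DPI.

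For the carrier and the proteases no change reached 2-fold. Scap, which encodes the SREBP escort, ranged from 8.77 to 8.89 in contralateral and 8.46 to 8.55 in injured nerve at 3 DPI, and from 8.62 to 8.74 and 8.57 to 8.77 at 7 DPI. Its change was -0.32 ± 0.06 at 3 DPI (1.24-fold lower, adjusted p = 0.00061) and -0.01 ± 0.06 at 7 DPI (1.01-fold lower, adjusted p = 0.94). Mbtps1, the site-1 protease, ranged from 9.34 to 9.44 and 8.90 to 9.10 at 3 DPI and from 9.32 to 9.47 and 9.17 to 9.39 at 7 DPI, again contralateral before injured. The change was -0.35 ± 0.07 at 3 DPI (1.27-fold lower, adjusted p = 0.00048) and -0.11 ± 0.07 at 7 DPI (1.08-fold lower, adjusted p = 0.23). Mbtps2, the site-2 protease, ranged from 7.55 to 7.83 and 8.07 to 8.18 at 3 DPI and from 7.49 to 7.77 and 8.15 to 8.28 at 7 DPI. It was the only member that passed the adjusted p upward on both days, 0.40 ± 0.08 at 3 DPI (1.32-fold higher, adjusted p = 0.00053) and 0.56 ± 0.08 at 7 DPI (1.48-fold higher, adjusted p = 2e-05). The change of Mbtps1 was lower than that of Mbtps2 by -0.75 ± 0.10 at 3 DPI and -0.68 ± 0.08 at 7 DPI. The 5 pairs of related members set against each other here were chosen after their values were seen, so their differences are given without a test.

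Stard4 encodes a protein that carries sterols between membranes and is a known SREBP target. Its log2 values were 8.01, 8.24, 8.39 and 8.16 in contralateral nerve and 7.60, 7.36, 7.52 and 7.56 in injured nerve at 3 DPI, and 7.94, 8.31, 8.12 and 8.40 in contralateral nerve and 7.27, 7.21, 6.97 and 7.10 in injured nerve at 7 DPI. The injured arrays lay below the contralateral arrays on both days. The change was -0.69 ± 0.11 at 3 DPI (1.61-fold lower, adjusted p = 6.4e-05) and -1.06 ± 0.11 at 7 DPI (2.08-fold lower, adjusted p = 7.4e-07), and without contralateral 7 DPI replicate 4 the value at 7 DPI was -0.99, just short of 2-fold.

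**Figure D3:**
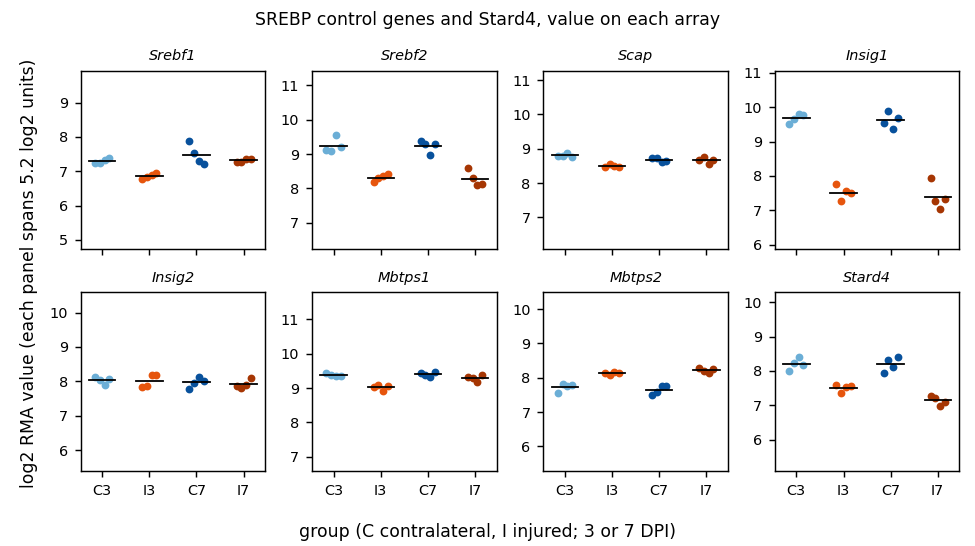
Log2 RMA value on each array for the 7 genes of SREBP control and Stard4, with contralateral (C) and injured (I) nerve at 3 and 7 DPI. Each point is 1 array and the line is the group mean. The injured arrays of Insig1 lie below 8 and the contralateral arrays above 9, Insig2 stays between 7.79 and 8.19 in all groups, and Mbtps2 is higher in injured nerve.

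The second question was whether the injured nerve differed between days. By adjusted p alone, 4 members were lower at 7 DPI than at 3 DPI, against 1.78% of all genes, and 2 were higher, against 2.23%. With the 2-fold minimum 0 were lower, against 0.198%, and 0 higher, against 0.121%, and at an unadjusted p under 0.05 12 members differed by limma. Msmo1 changed by -0.51 ± 0.07 (adjusted p = 0.00032) and Sc5d by -0.34 ± 0.07 (adjusted p = 0.012), and both stayed past the threshold under every alternative run. Hsd17b7 was at -0.40 ± 0.10 (adjusted p = 0.036) and Ebp at -0.31 ± 0.08 (adjusted p = 0.047). Fdft1 (-0.36 ± 0.10, adjusted p = 0.051), Stard4 (-0.37 ± 0.11, adjusted p = 0.06) and Sqle (-0.34 ± 0.11, adjusted p = 0.11) had changes of like size without passing. Srebf1 was at 0.46 ± 0.11 (adjusted p = 0.027) and Mbtps1 at 0.26 ± 0.07 (adjusted p = 0.036). With each of the 16 arrays left out in turn, the adjusted p was over 0.05 in 12 of the fits for Ebp, 8 for Mbtps1, 7 for Srebf1 and 5 for Hsd17b7, with highest values of 0.13, 0.12, 0.081 and 0.11. Without injured 3 DPI replicate 1, and likewise without injured 7 DPI replicate 2, all 4 of these genes were over it. Each of these fits left 2 members, Msmo1 and Sc5d. Fdft1 and Stard4 passed without the dimmest 30% of genes, after cyclic loess, with trend and robust settings and with array weights, at adjusted p from 0.022 to 0.037, and Fdft1 also after median centring (0.038). Sqle passed with only the compared groups in the fit (0.04), and each of Fdft1, Stard4 and Sqle passed with certain single arrays left out.

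**Figure D4:**
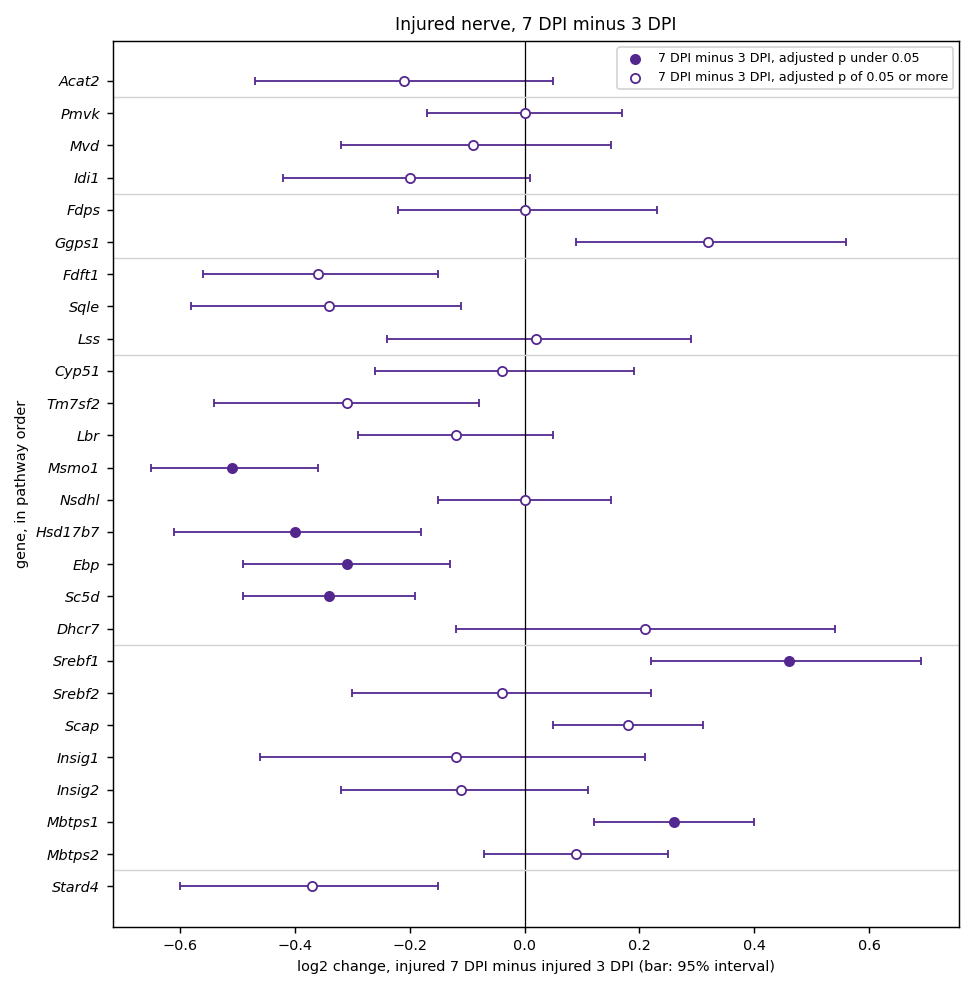
Log2 change of each measured member in injured nerve, 7 DPI minus 3 DPI, in pathway order from top to bottom, with 95% intervals. Filled points passed an adjusted p of 0.05. Msmo1, Hsd17b7, Ebp and Sc5d lie to the left of 0, and Srebf1 and Mbtps1 to the right.

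The difference between the injury effects, the change at 7 DPI minus that at 3 DPI, was tested in the same fit. By adjusted p alone 1 member was lower, against 0.947% of all genes, and 0 were higher, against 0.771%. At an unadjusted p under 0.05 6 members differed. The member was Msmo1, whose injury effect was deeper at 7 DPI, with a difference of -0.48 ± 0.10 (adjusted p = 0.018). With contralateral 7 DPI replicates 1 and 2 left out the difference was -0.47 and its adjusted p 0.064. For Idi1, with a difference of -0.15, the 95% interval ran from -0.45 to 0.16, and for Insig1, with -0.06, from -0.53 to 0.42.

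The contralateral nerve was compared between days as the background for these values. By adjusted p alone 0 members were lower at 7 DPI, against 0.0165% of all genes, and 0 were higher, against 0.0550%. By limma at an unadjusted p under 0.05, 4 members differed, all lower at 7 DPI. They were Tm7sf2 (-0.28), Nsdhl (-0.16), Ebp (-0.23) and Scap (-0.13). The median change of the 26 members was -0.07, and that over all genes -0.002. The changes of the 26 members ran from -0.28 to 0.19, with 95% intervals within -0.51 to 0.42, and 0 members passed under any alternative.

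Genes beside the pathway were counted from lists of related functions. The background for these lists and for the cell markers below is the share of all genes called. It was 2.55% lower and 3.25% higher at 3 DPI, and 2.17% lower and 2.48% higher at 7 DPI. Of 6 measured other enzymes of the pathway, 3 were called lower at 3 DPI and 2 at 7 DPI. Acss2, which makes acetyl-CoA from acetate, changed by -2.39 ± 0.11 and -2.16 ± 0.11, and Aacs, which activates acetoacetate for sterol synthesis, by -1.75 ± 0.11 and -1.66 ± 0.11. Erg28, a scaffold of sterol enzymes in yeast, was at -1.14 ± 0.07 and -0.85 ± 0.07, the latter not called. Of 8 genes for side branches from prenyl diphosphates, 1 was called lower at 3 DPI, Fnta, a subunit of protein farnesyltransferase, at -1.01 ± 0.08, and 0 at 7 DPI. Of 9 other regulators of SREBP and HMG-CoA reductase, 0 were called by limma on either day. By adjusted p alone, 2 were lower (14.7% of all genes) and 2 higher (18.8%) at 3 DPI. At 7 DPI 1 was lower (13.0%) and 3 were higher (19.1%). The counts at an unadjusted p under 0.05 were the same. The median change of these regulators was -0.04 at 3 DPI and 0.05 at 7 DPI.

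Among genes that take sterols in or send them out, the called changes were increases. Lipa, lysosomal acid lipase, which frees cholesterol from its esters, was the 1 gene called among 9 for uptake and transport, and rose by 2.48 ± 0.15 at 3 DPI and 2.70 ± 0.15 at 7 DPI. Of 11 genes for efflux, esters and oxysterols, 2 were called higher at 3 DPI and 4 at 7 DPI, and 0 lower. Abca1, the cholesterol exporter, rose by 2.73 ± 0.07 and 2.41 ± 0.07, and Abcg1, another exporter, by 1.02 ± 0.17 and 1.13 ± 0.17. Apoe, a lipid carrier, was at 0.58 ± 0.09 and 1.13 ± 0.09, and Cyp7b1, an oxysterol hydroxylase, at 0.63 ± 0.13 and 1.02 ± 0.13, each called at 7 DPI only.

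Of 12 measured fatty acid targets of SREBP, 6 were called lower at 3 DPI and 7 at 7 DPI. Elovl6, a fatty acid elongase, changed by -3.52 ± 0.14 and -4.70 ± 0.14, and Scd, stearoyl-CoA desaturase, by -1.90 ± 0.37 and -2.06 ± 0.37. Acaca, acetyl-CoA carboxylase, changed by -1.57 ± 0.10 and -1.42 ± 0.10. Thrsp, a lipogenic gene, was at -0.82 ± 0.67 (adjusted p = 0.41) and -1.89 ± 0.67 (adjusted p = 0.04). On the contralateral arrays at 7 DPI Thrsp read 10.10, 10.28, 9.30 and 7.50, and Scd 11.30, 11.41, 10.32 and 9.63, highest on replicates 1 and 2, whose adipocyte marker means were 8.38 and 8.29 against 7.92 and 7.25. Without those 2 arrays Thrsp was not called at 7 DPI (-1.0 ± 0.78, adjusted p = 0.42), Scd was at -1.38 ± 0.36 (adjusted p = 0.012), Gpam was at -0.93 ± 0.12, and 5 genes of the list were called lower. Fads2, a fatty acid desaturase named here after its values were seen, was the 1 gene called higher, by 1.05 ± 0.13 at 7 DPI.

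Markers of the cells in the nerve were counted in the same way. All 10 measured markers of myelinating Schwann cells were called lower on both days, with a median change of -2.71 and -4.55. Their mean level lay between 11.83 and 12.10 on the contralateral arrays and between 9.01 and 9.44 on the injured arrays at 3 DPI, and between 11.57 and 11.87 and between 7.90 and 8.14 at 7 DPI. For comparison, the mean level of the 9 enzymes from lanosterol to cholesterol lay between 10.05 and 10.28 and between 8.30 and 8.42 at 3 DPI, and between 9.98 and 10.14 and between 8.06 and 8.20 at 7 DPI. By adjusted p alone, the injury effect was deeper at 7 DPI for 4 of the 10 myelin markers and for 1 of the 9 enzymes. The share of all genes lower in this difference was 0.947%. The enzyme was Msmo1, which did not pass with contralateral 7 DPI replicates 1 and 2 left out (adjusted p = 0.064). Of 8 markers of all Schwann cells, 3 were called lower at 3 DPI, and 4 lower and 1 higher at 7 DPI. Their changes ran from -2.06 to 0.14 at 3 DPI and from -2.75 to 1.03 at 7 DPI, so these markers did not move together.

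Of 12 macrophage markers, 11 were called higher at 3 DPI and 5 at 7 DPI, and their mean level lay between 7.85 and 8.62 on contralateral and 9.66 and 9.88 on injured arrays at 3 DPI, and between 8.31 and 8.71 and between 9.11 and 9.72 at 7 DPI. All 8 markers of dividing cells were called higher on both days. Of 5 endothelial markers 1 was called lower on each day. Of 8 adipocyte markers 0 were called at 3 DPI, with 0 at an unadjusted p under 0.05. At 7 DPI 3 were called lower, and 0 without contralateral 7 DPI replicates 1 and 2. By adjusted p alone 7 were lower at 7 DPI, against 13.0% of all genes. Without those 2 arrays only Plin1 (-0.7 ± 0.18, adjusted p = 0.013) and Plin4 (-0.41 ± 0.12, adjusted p = 0.028) still passed it. The median change of these markers between 3 and 7 DPI was 0.20 in injured nerve, with 0 of 8 at an unadjusted p under 0.05, and 0.91 in contralateral nerve, with 8 of 8 higher at an unadjusted p under 0.05 and 0 by adjusted p. Among 7 mesenchymal and 4 muscle markers 0 were called by limma. At an unadjusted p under 0.05 there were 4 mesenchymal and 0 muscle markers on each day. By adjusted p alone, 1 mesenchymal marker was lower (14.7% of all genes) and 2 were higher (18.8%) at 3 DPI. At 7 DPI 2 were lower (13.0%) and 2 higher (19.1%). The part of these cells in the results for sterol genes was not tested.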

How the data were processed

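Labelled cDNA of 16 sciatic nerves was read on Affymetrix arrays (Rat Gene 2.0 ST). The authors corrected the background, applied quantile normalisation and deposited log2 values for each probe set, by RMA in oligo (version not given in the sources used here), so a shift shared by most genes is not measured. Array medians over the 36685 probe sets lay between 6.27 and 6.40, and arrays of a group correlated at 0.981 to 0.989. No scanner output or detection calls were used here, and precision is limited by the number of arrays.

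Probe sets annotated with 1 symbol (18511; 575 had several and 17599 none) were kept, the highest mean over 16 arrays being used for the 291 genes with several, which left 18166 genes. All arrays entered 1 limma 3.58.1 fit of 4 group means in R 4.3.3 (12 residual and 4.08 prior degrees of freedom, two-sided), without a block. The fit was tested on simulated data. Python 3.11.15, pandas 2.3.3 and matplotlib 3.10.9 made tables and plots. Values on every array are given for members called on either day, the transcription factors and the INSIGs, and for other lists up to 4 called genes of largest change. Members and lists were chosen with earlier results of these data known. Alternatives were the fold minimum, a filter on dim genes, probe set averaging, median centring, cyclic loess, trend and robust settings, array weights, only the compared groups, pooled contralateral arrays, replicate blocks and leaving out arrays.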

Additional observations from a re-analysis of the deposited data

Results flagged for a closer look

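Lbr on injured 3 DPI replicate 3 stood apart from the other arrays of its group, at a log2 value of 8.18 against 8.28 to 8.30, a gap of 0.85 of the group's range. It was the 1 such value among 104 groups of 4 arrays tested, and chance marks about 5% of groups.

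The injury effect on Msmo1 differed between days by -0.48, deeper at 7 DPI, in the limma test of the difference itself (adjusted p = 0.018). With contralateral 7 DPI replicates 1 and 2 left out it was -0.47 and no longer passed (adjusted p = 0.064). The 4 arrays of injured nerve at 7 DPI all lay below the 4 at 3 DPI.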

How the results depend on the processing

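No called value changed direction. Leaving out 1 array at a time gave 16 members called lower at 3 DPI and 16 to 18 at 7 DPI, 0 called higher, and 427 to 512 and 378 to 405 genes called lower in all (main values 464 and 395). It gave 2 to 8 members (main 6) and 491 to 784 genes (730) between days in injured nerve. For the difference of injury effects it gave 1 member and 196 to 465 genes (312), and for contralateral nerve 0 members and 1 to 191 genes (13). With no fold minimum 2 members were higher at 3 DPI and 1 at 7 DPI, and 2664 and 2356 genes were lower in all.

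Contralateral nerve gave 63 genes without the dimmest 30%, 42 with trend and robust settings, 0 with only the compared groups, 125 with array weights, 5 with a replicate block and 6 with contralateral 7 DPI replicates 1 and 2 left out. These replicates were named for adipocyte genes in an earlier analysis. Leaving them out gave 145 genes for the difference of injury effects and 3 members between days in injured nerve. For adipocyte markers this alternative, chosen after seeing the data, left 0 called lower at 7 DPI (main 3). Plin1 and Plin4 still passed the adjusted p without reaching 2-fold. The cause was not tested. With only the compared groups in the fit, 477 genes differed between days in injured nerve (main 730). A replicate block within each day, chosen after seeing the data, left 0 members for the difference (Msmo1 adjusted p = 0.052). The labels do not tie a nerve to an animal, so the numbers were not used as pairs. After group means were removed, nerves with the same number correlated at -0.08 to 0.22. The closest injured nerve had the same number for replicates 2, 3 and 4 at 3 DPI and 2 and 4 at 7 DPI. It had another number for replicate 1 at 3 DPI and replicates 1 and 3 at 7 DPI. With 4 arrays per group these values cannot settle whether a number marks an animal.

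Among the values of single members, 720 of 728 kept their side of the threshold at 3 DPI, 721 of 728 at 7 DPI, 647 of 650 for the difference and 594 of 650 between days in injured nerve. With the 2 contralateral replicates left out, the difference for Srebf1 was 0.50 (adjusted p = 0.04).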
